A study of Mus musculus with 11 samples.

Results

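Imprinted genes are transcribed mainly from the copy inherited from the mother or mainly from the copy inherited from the father. A list of 34 such genes was followed by gene symbol through a table of 37991 genes measured in 11 mouse RNA sequencing libraries. Of the listed genes, 33 had an entry of that symbol and Kcnq1ot1 had none, so its expression was not analysed here. Of those 33, 29 reached at least 1 CPM (the reads of a gene, scaled to a common total per library) in at least 2 libraries and were tested, and 18 had a group mean of at least 10 CPM.

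The libraries came from neural stem cell cultures of C57BL/6J mice, made from frontal cortices at embryonic age E14.5. Cells kept in proliferation medium were taken at day 0 (NSC, 3 libraries). The other cultures were taken at day 4 after a change of medium: an astrocyte medium, which was DMEM holding 1% fetal bovine serum and 1% N-2 (3 libraries), a neuron medium, which was Neurobasal holding 2% B-27 (3 libraries), or an oligodendrocyte medium, which was the neuron medium plus 30 ng/mL of thyroid hormone (T3; 2 libraries). The group names stand for the medium, the labels name no altered allele or transgene, all cells were plated on flasks with a PDL/LMN coating, and the day 4 media all held 2 mM GlutaMAX-1. No culture was kept in proliferation medium until day 4, so the effects of the medium and of the elapsed time cannot be told apart.

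Imprints are set in the germ line as DNA methylation at control regions, and in the embryo they are carried through each cell division by the maintenance methyltransferase DNMT1 with UHRF1, and by the zinc finger protein ZFP57 with TRIM28. Many imprinted genes act on growth: insulin-like growth factor 2 drives it, its receptor IGF2R takes the factor to the lysosome, and GRB10 restrains signalling from the insulin and IGF receptors. Several are also abundant in the developing brain, and some leave the ordinary imprinted state in neural cells. C57BL/6J is an inbred strain, so these values give the sum of both parental copies and hold nothing on which copy was read.

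The culture change was large in every library. All 10 genes of a cell division list fell at day 4, where 37% of all genes tested fell, and their median log2 change was -4.54. Ccnd1, the cyclin D1 gene, went from 1733 CPM in NSC to 20.1, 20.6 and 47.5 CPM in astrocyte, neuron and oligodendrocyte medium. Summed CPM of 6 astrocyte markers rose from between 1474 and 1544 in NSC to between 11782 and 13258 in astrocyte medium. It was 7042 to 7941 in neuron medium and 2034 to 2259 in oligodendrocyte medium. All 6 of these markers were called lower in oligodendrocyte than in neuron medium, where 23.6% of all genes were. Summed CPM of 6 oligodendrocyte markers was 67.9 to 75.7 in NSC, 407 to 518 in astrocyte medium, 2505 to 2680 in neuron medium and 2406 to 2755 in oligodendrocyte medium. Summed CPM of 5 neuron markers was 6.91 to 8.31 in NSC and 133 to 213 in the day 4 libraries, so each medium held transcripts of several cell types. Depth, read from the step between low values, was 49.3 to 66.2 M reads per library, and mitochondrial genes held 4.54% to 4.71% of the scale in NSC against 6.13% to 8.91% at day 4. In bulk libraries such as these, a higher share of cells of a type and more RNA per cell cannot be told apart.

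The imprinted genes did not move as a block when the cells were taken out of proliferation medium. Between day 4 (8 libraries, the 3 media weighted equally) and NSC, 14 of the 29 tested members rose and 10 fell, at an adjusted p under 0.05. This was 24 of 29 members, where 86.3% of all 13342 genes tested were called, 49.3% of them higher and 37% lower, so the members' counts lay near those of genes in general. The median log2 change of the members was 0.22, beside 0.15 over all genes; since the latter is not 0, differences of that size mark the middle of all genes on this scale. Under quantile normalization, which sets both medians nearer to 0, the split became 11 higher and 13 lower. At 2-fold or more, 6 members were higher and 4 lower, beside 19.8% and 11.4% of all genes. The day 4 and NSC libraries did not overlap for 17 of the 29 members, against 64% of all genes.

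A group of 12 members, chosen here to stand for an imprinted growth network, also moved in both directions, while every division gene fell. Of its 10 tested genes, Plagl1, H19 and Meg3 rose at day 4, Mest, Grb10, Igf2r, Peg3 and Igf2 fell (3 and 5 of 10), and Gnas (log2 change -0.13) and Ndn (0.15) were not called. Thus 8 of 10 were called, near the 86.3% of all genes, of which 49.3% were higher and 37% lower. The Igf2 call rests on overlapping libraries and was lost without the third NSC library (adjusted p = 0.0524). The median of the group was -0.25, beside 0.22 over all tested members and 0.15 over all genes; the difference of the group from the other members was not tested. Dlk1 did not reach the expression limit for testing, and Phlda2, a restrainer of placental growth, was listed at 0 in every library. By parental copy, 8 of 16 tested paternally expressed members rose and 7 fell, and 4 of 9 maternally expressed members rose and 2 fell. Of the 4 members whose expressed copy depends on the transcript or tissue, Blcap and H13 rose and Grb10 fell. The shares of all genes to set beside these counts by copy are again 49.3% higher and 37% lower.

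**Figure D1:**
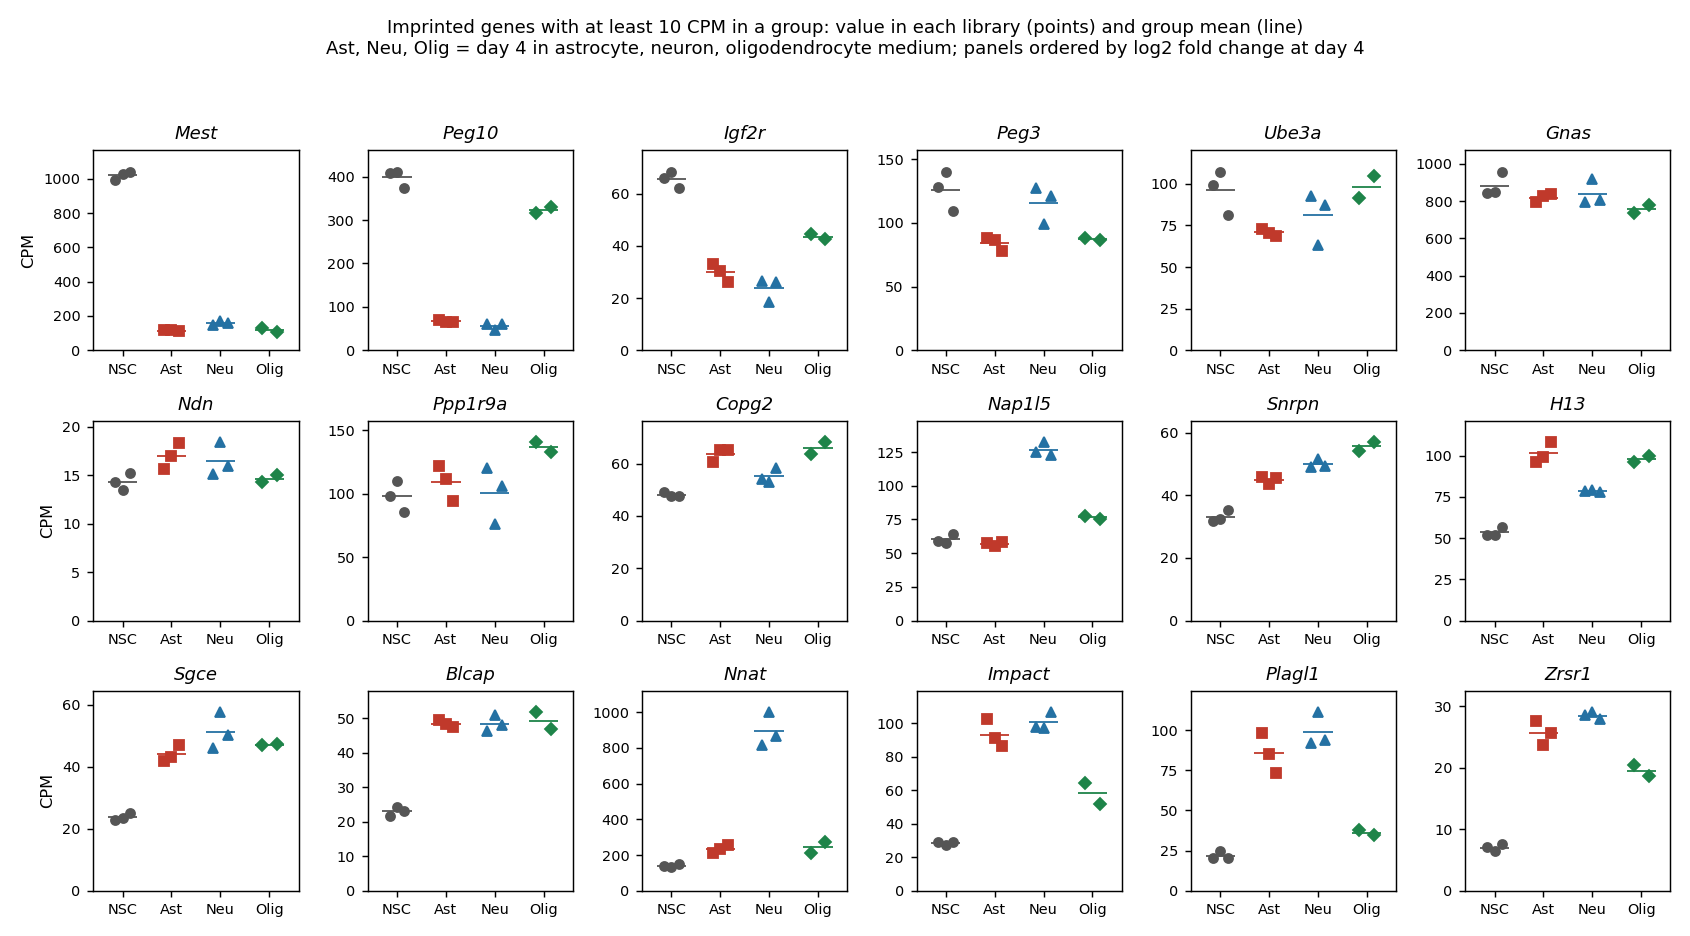
CPM in each of the 11 libraries for the 18 members with a group mean of at least 10 CPM. Each panel is 1 gene with its own linear axis, points are libraries grouped by medium, and the horizontal bar is the group mean. Mest is high in the NSC libraries alone, Peg10 in the NSC and oligodendrocyte medium libraries, and Nnat in the neuron medium libraries.

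Several of the members described below are intronless copies that lie inside another gene, and Mest opens into a region with a microRNA. To show the sequence at their starts, the 250 bases before a RefSeq start site are given for Mest, for the Nnat gene inside Blcap, for Nap1l5 inside Herc3 and for Zrsr1 inside Commd1, read 5′ to 3′ along the gene's own strand on build GRCm38.p6. Capitals mark the hexamer TGCCGC, searched on both strands, which is the core that ZFP57 binds when it is methylated.
Mest, chr6:30737800-30738049, plus strand: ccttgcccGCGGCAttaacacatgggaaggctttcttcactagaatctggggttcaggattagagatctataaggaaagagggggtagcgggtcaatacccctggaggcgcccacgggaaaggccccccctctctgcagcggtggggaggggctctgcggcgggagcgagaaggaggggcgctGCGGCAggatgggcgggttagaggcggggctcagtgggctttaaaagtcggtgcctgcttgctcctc
Nnat, chr2:157559828-157560077, plus strand: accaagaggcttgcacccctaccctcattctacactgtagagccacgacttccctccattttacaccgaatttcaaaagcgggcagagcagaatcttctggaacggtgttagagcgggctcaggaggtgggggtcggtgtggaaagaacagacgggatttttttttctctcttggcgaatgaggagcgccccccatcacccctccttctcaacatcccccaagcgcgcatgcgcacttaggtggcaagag
Nap1l5, chr6:58907127-58907376, minus strand: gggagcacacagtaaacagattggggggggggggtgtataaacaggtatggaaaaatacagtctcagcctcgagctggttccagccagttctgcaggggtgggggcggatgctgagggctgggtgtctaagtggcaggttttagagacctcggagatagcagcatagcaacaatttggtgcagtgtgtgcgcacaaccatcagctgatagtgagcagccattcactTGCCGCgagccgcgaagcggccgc
Zrsr1, chr11:22971755-22972004, plus strand: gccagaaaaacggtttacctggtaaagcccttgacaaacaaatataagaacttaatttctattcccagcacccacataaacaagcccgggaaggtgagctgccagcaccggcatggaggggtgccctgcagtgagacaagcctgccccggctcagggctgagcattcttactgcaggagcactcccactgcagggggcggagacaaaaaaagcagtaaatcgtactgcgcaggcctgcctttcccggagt
The Mest window shown held 14 CpG dinucleotides and 2 copies of the hexamer. Of the 3 Mest windows in the table, another overlaps it nearly whole, and the one furthest upstream (chr6:30733256-30733505) held 7 CpG and no copy of the hexamer. Each other gene shown has 1 window, and that of Nap1l5 held 10 CpG and 1 copy. The Nnat window held 12 CpG and the Zrsr1 window 8, with no copy of the hexamer in either. Among 32851 windows of all genes the median was 6 CpG, 8.7% held TGCCGC and 3.9% held GCCATNTT, the core bound by YY1, on either strand. Of 46 windows of the 30 members with an entry, Kcnq1ot1 included, 9 windows of 8 members held TGCCGC and 1, of Ube3a, held GCCATNTT, and their median was 10 CpG. These letters are a description of the windows, and neither methylation nor factor binding was measured.

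Within the Igf2 and Igf2r pathway, the clearance receptor and the adaptor fell while the growth factor itself was near or under 1 CPM in most libraries. Igf2r (chr17:12875272-12962530 on mm9), which removes IGF2 from the cell surface, had 66.05, 68.52 and 62.31 CPM in NSC, 33.25, 30.58 and 26.03 CPM in astrocyte medium, 26.62, 18.50 and 26.27 CPM in neuron medium and 44.41 and 42.52 CPM in oligodendrocyte medium. Every day 4 library lay below every NSC library, and the oligodendrocyte medium libraries lay between NSC and the other media. The log2 change against NSC was -1.11 ± 0.12 (SE) in astrocyte medium (adjusted p = 1.13e-06), -1.44 ± 0.12 in neuron medium (7.48e-08) and -0.58 ± 0.14 in oligodendrocyte medium (0.00133). Igf2r was 1.82 times as high in oligodendrocyte as in neuron medium on the log2(CPM + 1) scale (log2 difference 0.86 ± 0.14, adjusted p = 8.58e-05). The difference between astrocyte and neuron medium (0.33, adjusted p = 0.0293) was called, but the libraries overlapped and the call was lost without the first or second astrocyte medium library or the second neuron medium library (0.0798 to 0.116).

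Grb10 (chr11:11830511-11938686), which dampens insulin and IGF receptor signalling and is read from the paternal copy in neurons and the maternal copy in most other tissues, fell in all 3 media. Its levels were 4.74 to 6.4 CPM in NSC, 0.88 to 1.18 CPM in astrocyte medium, 1.26 to 2.25 CPM in neuron medium and 3.27 to 3.58 CPM in oligodendrocyte medium, with no overlap between any of these groups. The log2 changes against NSC were -1.73 ± 0.14, -1.22 ± 0.14 and -0.57 ± 0.15 in that order of media, with adjusted p values of 3.43e-08, 1.41e-06 and 0.00346. As for Igf2r, the smallest fall was in oligodendrocyte medium, and the difference of that medium from astrocyte medium was 1.16 ± 0.15 (adjusted p = 2.79e-05).

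Igf2 (chr7:149836673-149852721) was at 0.82 to 1.04 CPM in NSC, 0.21 to 0.37 CPM in astrocyte medium, 0.20 to 0.34 CPM in neuron medium and 0.72 and 1.8 CPM in oligodendrocyte medium. These levels correspond to about 10 to 114 reads per library. Igf2 fell in astrocyte medium (log2 change -0.61 ± 0.14, adjusted p = 0.00132) and neuron medium (-0.65 ± 0.14, 0.00088), and the pair of oligodendrocyte medium libraries lay on either side of NSC (0.17, adjusted p = 0.348). That last value changed sign under quantile normalization, to -0.47.

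H19 (chr7:149761434-149764048), a noncoding RNA of the maternal copy and neighbour of Igf2, rose in all 3 media. It had 2.08, 2.37 and 1.92 CPM in NSC, 8.05, 10.66 and 8.93 CPM in astrocyte medium, 4.99, 5.93 and 5.00 CPM in neuron medium and 3.55 and 5.68 CPM in oligodendrocyte medium. All day 4 libraries lay above all NSC libraries, the astrocyte medium libraries highest. The log2 changes were 1.70 ± 0.14 (adjusted p = 4.63e-08), 1.01 ± 0.14 (1.07e-05) and 0.82 ± 0.15 (0.000228), and the last was not called under quantile normalization (0.17, adjusted p = 0.388). H19 and Igf2 share enhancers in other tissues, and here their log2 changes against NSC had opposite signs in astrocyte and neuron medium. The Airn RNA, read across the start of Igf2r from the other strand, was low throughout (0.49 to 1.46 CPM); its day 4 change of -0.34 was called with overlapping libraries and was lost without the second NSC library (adjusted p = 0.106) or the third (0.103).

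Plagl1 (chr10:12810497-12851500) encodes a zinc finger transcription factor that slows proliferation and is known to act on other imprinted genes. It had 20.36, 25.03 and 20.57 CPM in NSC, 97.92, 85.41 and 73.26 CPM in astrocyte medium, 91.99, 111.10 and 93.70 CPM in neuron medium and 37.85 and 34.74 CPM in oligodendrocyte medium. All day 4 libraries were above NSC, and both oligodendrocyte medium libraries were below every library of the other media. Plagl1 rose 3.76-fold in astrocyte medium (log2 change 1.91 ± 0.11, adjusted p = 1.27e-09), 4.35-fold in neuron medium (2.12 ± 0.11, 4.47e-10) and 1.63-fold in oligodendrocyte medium (0.70 ± 0.12, 0.00013). The differences of oligodendrocyte medium from neuron medium (-1.42 ± 0.12, adjusted p = 3.56e-07) and from astrocyte medium (-1.21 ± 0.12, 3.01e-06) were both called.

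Igf2, H19 and Plagl1 are also abundant in mesenchymal cells of the brain coverings and vessels. The summed CPM of 8 mesenchymal and meningeal markers was 16.0 to 16.4 in NSC, 50.2 to 51.8 in astrocyte medium, 43.4 to 49.4 in neuron medium and 20.1 to 23.1 in oligodendrocyte medium. The sums were nearly all from 2 of the markers: the pericyte receptor gene Pdgfrb, with a mean of 0.263 CPM in NSC and 41.9, 37.5 and 8.82 CPM in the media, and the transcription factor gene Foxc1, with 15.2 CPM in NSC and 8.80, 7.60 and 12.4 CPM in the media. The former rose and the latter fell in each medium, and 6 of the 8 markers, the collagen genes among them, stayed under 1 CPM in every library. The 5 choroid plexus markers summed to 0.17 to 0.30 CPM in NSC and at least 10.3 CPM in each astrocyte medium library, nearly all of it from Folr1, and the 5 endothelial and 5 microglial markers summed to at most 7.37 and 1.32 CPM in any library. The part of such cells in the changes of H19, Igf2 and Plagl1 was not tested.

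The Dlk1 and Meg3 domain of chromosome 12 was nearly silent in these cultures. Dlk1, a membrane ligand related to the Notch ligands, ranged from 0.32 to 0.45 CPM in NSC, 0.73 to 0.98 CPM in astrocyte medium, 0.04 to 0.20 CPM in neuron medium and 0.48 to 0.54 CPM in oligodendrocyte medium, with 2 to 61 reads a library, and was too low to be tested. The noncoding Meg3 reached at most 1.87 CPM in any library, Rian 1.33 CPM and Mirg 0.07 CPM. Meg3 was called higher at day 4 (log2 change 0.72 ± 0.14, adjusted p = 0.000223), as was Rian (0.47 ± 0.11, 0.00144), but under quantile normalization Meg3 was at 0.12 and not called and Rian was at -0.14.

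Mest had the largest day 4 fall of the 29 tested members, at -2.98 ± 0.06 on the log2 scale (adjusted p = 3.88e-14). Mest (chr6:30673547-30698457), which encodes a protein of the hydrolase fold and is expressed from the paternal copy, was at 990.70, 1031.05 and 1042.46 CPM in NSC. It was at 116.34, 115.45 and 110.40 CPM in astrocyte medium, 145.16, 173.46 and 158.75 CPM in neuron medium and 127.34 and 107.45 CPM in oligodendrocyte medium. Every day 4 library was thus far below every NSC library, and the neuron medium libraries were the highest of the day 4 libraries. Mest was 8.89-fold lower in astrocyte medium (log2 change -3.15 ± 0.08, adjusted p = 1.87e-13), 6.40-fold lower in neuron medium (-2.68 ± 0.08, 9.64e-13) and 8.66-fold lower in oligodendrocyte medium (-3.12 ± 0.09, 1.03e-12). The level in neuron medium exceeded that in astrocyte medium by 0.47 on the log2 scale (adjusted p = 0.000116) and that in oligodendrocyte medium by 0.44 (0.000501).

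Copg2 (chr6:30697554-30846794), a subunit of the COPI vesicle coat, is read towards Mest from the opposite strand, and the annotated ends of the genes share 904 bases. It had 49.00, 47.50 and 47.48 CPM in NSC, 60.54, 65.27 and 65.23 CPM in astrocyte medium, 53.96, 53.00 and 58.18 CPM in neuron medium and 63.49 and 68.24 CPM in oligodendrocyte medium. All day 4 values were above all NSC values, with smaller steps than in Mest and in the other direction. Copg2 rose by 0.40 ± 0.06, 0.19 ± 0.06 and 0.45 ± 0.07 on the log2 scale (adjusted p = 2.69e-05, 0.00856 and 2.97e-05). The rise in neuron medium was not called with median-of-ratios scaling (0.12, adjusted p = 0.09).

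Mest also hosts a microRNA, miR-335, whose mature forms are shown because they lie inside the gene that fell most. Capitals mark the seed, bases 2 to 8, and neither form was measured in these poly(A) libraries.
mmu-miR-335-5p, chr6:30741314-30741336 on GRCm38.p6, plus strand: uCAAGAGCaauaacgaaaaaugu
mmu-miR-335-3p, chr6:30741354-30741375 on GRCm38.p6, plus strand: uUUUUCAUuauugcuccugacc
The seeds of the 5p and 3p forms differ. H19 likewise hosts miR-675, with the 5p form shown for the rise of its host.
mmu-miR-675-5p, chr7:142577112-142577133 on GRCm38.p6, minus strand: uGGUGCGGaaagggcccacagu

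Peg10 and Sgce start 101 bases apart on opposite strands of chromosome 6, are both expressed from the paternal copy, and went opposite ways. Peg10 (chr6:4697306-4710517), a gene derived from a retrotransposon and needed in the placenta, had 409.43, 411.75 and 374.59 CPM in NSC, 69.95, 65.96 and 64.08 CPM in astrocyte medium, 60.74, 47.64 and 60.66 CPM in neuron medium and 316.76 and 330.92 CPM in oligodendrocyte medium. The oligodendrocyte medium libraries were close below NSC and far above the other day 4 libraries. Peg10 fell 5.90-fold in astrocyte medium (log2 change -2.56 ± 0.09, adjusted p = 4.17e-12) and 7.00-fold in neuron medium (-2.81 ± 0.09, 1.95e-12). In oligodendrocyte medium its change was -0.30 ± 0.10 (adjusted p = 0.0113), a call that was lost without the first oligodendrocyte medium library (0.0774) and under quantile normalization (0.0521).

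The neuron and oligodendrocyte media differ by T3 alone per the labels, and Peg10 was 5.70-fold higher with T3 (log2 difference 2.51 ± 0.10, adjusted p = 1.89e-10). It was 4.80-fold higher than in astrocyte medium (2.26 ± 0.10, 1.14e-09). Of the tested members, this was the only one at least 2-fold higher with T3 on the log2(CPM + 1) scale, where 8.96% of all genes were. That scale understates changes of low genes. Igf2 had a mean of 0.25 CPM in neuron medium and 1.26 CPM with T3 (log2 difference 0.81 ± 0.16, adjusted p = 0.000551). Dlk1, not tested, had means of 0.127 and 0.51 CPM.

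Sgce (chr6:4624350-4697204), the sarcoglycan epsilon gene mutated in myoclonus dystonia, had 22.83, 23.41 and 25.17 CPM in NSC, 41.80, 43.24 and 46.98 CPM in astrocyte medium, 46.04, 57.56 and 50.26 CPM in neuron medium and 47.07 and 47.21 CPM in oligodendrocyte medium. All day 4 libraries were above NSC, and the range in neuron medium covered both oligodendrocyte medium libraries and overlapped astrocyte medium. Sgce rose by 0.86 ± 0.08, 1.07 ± 0.08 and 0.96 ± 0.09 (adjusted p = 2.21e-07, 2.19e-08 and 2.72e-07). Between oligodendrocyte and neuron medium, where Peg10 differed most, Sgce differed by -0.11 (adjusted p = 0.277). It was called lower there with median-of-ratios scaling (-0.25, adjusted p = 0.0369) and under quantile normalization (-0.30, 0.0173).

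Of the other genes in that domain, Ppp1r9a, the actin-binding neurabin, had 98.08, 109.76 and 85.90 CPM in NSC, 121.94, 111.64 and 94.06 CPM in astrocyte medium, 120.56, 75.92 and 106.31 CPM in neuron medium and 140.86 and 132.76 CPM in oligodendrocyte medium. The oligodendrocyte medium libraries were the highest, and the others overlapped. It was higher there than in NSC (log2 change 0.48 ± 0.16, adjusted p = 0.0143). That call was lost with median-of-ratios scaling (0.27, adjusted p = 0.121) and without the third NSC library (0.395, 0.0596). It was also lost without the first oligodendrocyte medium library (log2 change 0.44). Asb4, an ankyrin repeat protein of ubiquitin ligases, stayed between 1.53 and 3.04 CPM and was lowest in oligodendrocyte medium (-0.53 ± 0.13 against NSC, adjusted p = 0.00227). Its day 4 call (-0.24, adjusted p = 0.0349) was lost when any of the 3 NSC libraries or the first oligodendrocyte medium library was left out (0.0549 to 0.123).

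**Figure D2:**
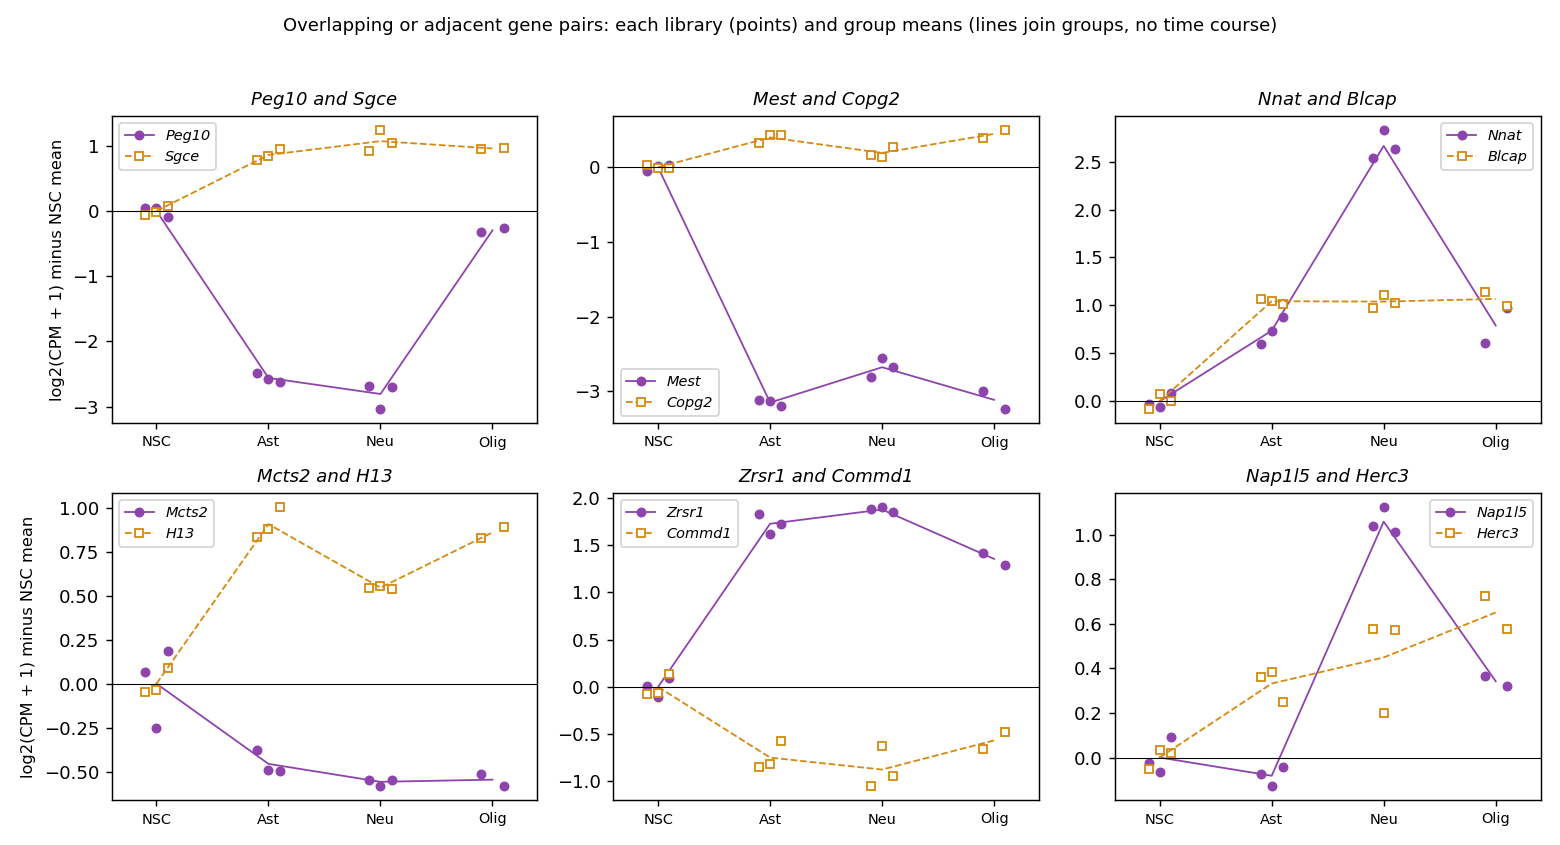
Log2(CPM + 1) minus the NSC mean for 6 pairs of neighbouring or nested genes, by medium. Each point is a library, filled for the first gene of the pair and open for the second, and lines join group means and are no time course. In the Peg10 and Sgce panel Peg10 drops in astrocyte and neuron medium while Sgce is higher in every day 4 library, and in the Mest and Copg2 panel Mest drops in all 3 media.

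At several places in the list a small imprinted gene lies inside a larger one. Nnat (chr2:157385814-157388258), which encodes the small membrane protein neuronatin and lies in an intron of Blcap on the other strand, rose most in neuron medium. It had 137.29, 134.28 and 148.20 CPM in NSC, 212.43, 232.87 and 257.54 CPM in astrocyte medium, 815.66, 999.93 and 869.02 CPM in neuron medium and 214.04 and 275.03 CPM in oligodendrocyte medium. Every neuron medium library was above every other library, and the other media overlapped each other above NSC. Nnat rose 6.34-fold in neuron medium (log2 change 2.66 ± 0.10, adjusted p = 2.04e-11), 1.67-fold in astrocyte medium (0.74 ± 0.10, 1.43e-05) and 1.73-fold in oligodendrocyte medium (0.79 ± 0.11, 2.36e-05). The differences of astrocyte and oligodendrocyte medium from neuron medium were -1.93 ± 0.10 (adjusted p = 4.61e-09) and -1.87 ± 0.11 (1.36e-08), so Nnat was much lower with T3.

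Blcap (chr2:157382098-157397010), a small protein whose transcripts are edited, had 21.68, 24.30 and 23.02 CPM in NSC, 49.36, 48.35 and 47.59 CPM in astrocyte medium, 46.19, 50.87 and 47.93 CPM in neuron medium and 51.72 and 46.91 CPM in oligodendrocyte medium. Its day 4 libraries lay within 46.19 to 51.72 CPM whatever the medium. Blcap rose by 1.04 ± 0.06, 1.04 ± 0.06 and 1.07 ± 0.07 (adjusted p = 2.92e-09, 3.27e-09 and 9.64e-09), and its media differences were at most 0.03 in size and not called. The Nnat difference between media thus had no counterpart in its host gene's total.

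Zrsr1 (chr11:22873215-22876498), a retrocopy of a splicing factor gene inside Commd1, rose in all 3 media while its host fell. Its levels were 7.07, 6.47 and 7.60 CPM in NSC, 27.55, 23.73 and 25.62 CPM in astrocyte medium, 28.59, 29.05 and 27.91 CPM in neuron medium and 20.48 and 18.65 CPM in oligodendrocyte medium. All day 4 libraries were above NSC, with the oligodendrocyte medium libraries below the other media. Zrsr1 rose 3.31-, 3.67- and 2.56-fold (log2 changes 1.73 ± 0.08, 1.88 ± 0.08 and 1.35 ± 0.09, adjusted p = 9.12e-11, 4.23e-11 and 5.15e-09). Commd1, a copper homeostasis gene, changed by -0.75, -0.87 and -0.57 on the log2 scale and was called lower in each medium. Reads of Zrsr1 that also match the parent gene Zrsr2 may have been assigned to either, since the counting rule for them is not given in the sources used here.

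Nap1l5 (chr6:58855228-58857120), an intronless copy of a nucleosome assembly gene inside Herc3, was high in neuron medium. It had 59.13, 57.45 and 64.26 CPM in NSC, 57.17, 55.03 and 58.35 CPM in astrocyte medium, 124.96, 132.51 and 122.50 CPM in neuron medium and 77.82 and 75.44 CPM in oligodendrocyte medium. The neuron medium libraries were above all others, and the astrocyte medium libraries overlapped NSC. Nap1l5 rose by 1.06 ± 0.06 in neuron medium (adjusted p = 1.01e-09) and by 0.34 ± 0.07 in oligodendrocyte medium (0.000311), the latter not called with median-of-ratios scaling (0.13, adjusted p = 0.0991). In astrocyte medium the change was -0.08 (adjusted p = 0.212), and with median-of-ratios scaling it was called lower (-0.26, 0.0015). Herc3, a ubiquitin ligase gene, rose in the 3 media by 0.33, 0.45 and 0.65, the first not called with median-of-ratios scaling (0.16, adjusted p = 0.0914). Between astrocyte and neuron medium Nap1l5 differed by -1.14 ± 0.06 (adjusted p = 3.68e-09) and Herc3 by -0.12 (adjusted p = 0.299). That Herc3 difference was called with median-of-ratios scaling (-0.22, 0.0361), under quantile normalization (-0.26, 0.0185) and without the second neuron medium library (-0.24, 0.00534).

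H13 (chr2:152495197-152534406), which encodes signal peptide peptidase, holds Mcts2 in an intron on the same strand. It had 51.67, 52.08 and 56.97 CPM in NSC, 96.24, 99.49 and 108.35 CPM in astrocyte medium, 78.45, 79.08 and 78.28 CPM in neuron medium and 95.92 and 100.02 CPM in oligodendrocyte medium. All day 4 libraries were above NSC, the neuron medium libraries lowest among them. H13 rose by 0.91 ± 0.06, 0.55 ± 0.06 and 0.86 ± 0.07 (adjusted p = 6.64e-09, 1.52e-06 and 4.85e-08). Mcts2 (chr2:152512884-152513676), a retrocopy of a translation factor gene, went the other way, from 7.69 to 10.78 CPM in NSC to between 5.92 and 6.97 CPM at day 4, a change of -0.52 ± 0.08 (adjusted p = 5.89e-05). Reads of Mcts2 may be shared with its parent gene Mcts1 and with intron reads of H13, so its level is uncertain.

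The kit used for these libraries keeps the strand of each RNA, but whether the counting used it is not given in the sources used here. Without it, reads in exons that overlap on opposite strands could not be told apart. The annotated spans, introns included, overlap for Mest and Copg2, Igf2r and Airn (28354 bases), Nnat and Blcap, Zrsr1 and Commd1, and Nap1l5 and Herc3. Whether their exons overlap was not examined.

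Among members that act in translation and RNA processing, Impact (chr18:13130761-13151457), an inhibitor of the stress kinase GCN2, had 29.23, 27.56 and 28.83 CPM in NSC, 102.24, 90.84 and 86.16 CPM in astrocyte medium, 97.87, 97.16 and 106.41 CPM in neuron medium and 64.43 and 51.66 CPM in oligodendrocyte medium. The NSC libraries were lowest, the oligodendrocyte medium libraries next, and the other media overlapped. Impact rose 3.18-, 3.43- and 1.99-fold (log2 changes 1.67 ± 0.08, 1.78 ± 0.08 and 0.99 ± 0.09, adjusted p = 3.19e-10, 1.77e-10 and 3.4e-07). With T3 it was lower than in neuron medium by 0.79 on the log2 scale (adjusted p = 7.38e-06).

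Snrpn, a splicing protein gene of the Prader-Willi region, had 31.74, 32.42 and 35.38 CPM in NSC, 45.77, 43.74 and 45.46 CPM in astrocyte medium, 48.95, 51.74 and 49.25 CPM in neuron medium and 54.33 and 57.10 CPM in oligodendrocyte medium. The groups did not overlap and stood in that order, with rises of 0.43 ± 0.06, 0.58 ± 0.06 and 0.73 ± 0.07 over NSC (adjusted p = 1.38e-05, 6.93e-07 and 2.15e-07). The difference between astrocyte and neuron medium (-0.15, adjusted p = 0.0448) was lost in 10 of the 11 fits that left out a library.

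Other members of the Prader-Willi and Angelman region changed little. Ube3a, the ubiquitin ligase gene that neurons read from the maternal copy, had 99.37, 107.33 and 81.30 CPM in NSC, 73.05, 70.37 and 68.89 CPM in astrocyte medium, 92.78, 63.08 and 87.09 CPM in neuron medium and 91.40 and 104.64 CPM in oligodendrocyte medium. Only the astrocyte medium libraries lay wholly below NSC, with a log2 change of -0.43 ± 0.13 (adjusted p = 0.0075). Ndn, the necdin gene of postmitotic neurons, had 14.30, 13.44 and 15.25 CPM in NSC, 15.68, 16.99 and 18.31 CPM in astrocyte medium, 15.12, 18.44 and 15.92 CPM in neuron medium and 14.27 and 15.05 CPM in oligodendrocyte medium. Its call in astrocyte medium (0.23, adjusted p = 0.025) was lost with median-of-ratios scaling (0.06) and without the first or second NSC library or the second or the third astrocyte medium library (adjusted p from 0.0569 to 0.102). Magel2 reached at most 0.05 CPM in any library.

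Gnas, the gene of the stimulatory G protein subunit, was high in every library and close to level. It had 841.31, 847.44 and 958.51 CPM in NSC, 795.03, 825.22 and 836.36 CPM in astrocyte medium, 797.37, 920.19 and 804.81 CPM in neuron medium and 735.62 and 779.09 CPM in oligodendrocyte medium. The oligodendrocyte medium libraries were the lowest, and the change there (-0.22 ± 0.09, adjusted p = 0.0334) was lost without the third NSC library (0.125), without either oligodendrocyte medium library (0.179 and 0.057) or with a replicate block (0.0513). The table sums the transcripts of this complex gene, so its separately imprinted forms cannot be told apart.

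Peg3, a zinc finger protein gene, had 127.90, 140.21 and 109.25 CPM in NSC, 88.23, 86.31 and 78.07 CPM in astrocyte medium, 127.05, 98.95 and 121.20 CPM in neuron medium and 87.92 and 86.61 CPM in oligodendrocyte medium. Astrocyte and oligodendrocyte medium lay below every NSC and neuron medium library, while neuron medium overlapped NSC. Peg3 fell by 0.57 ± 0.10 (adjusted p = 0.000134) and 0.52 ± 0.11 (0.000845) in the former media, and its change in neuron medium was -0.12 (adjusted p = 0.28). Its neighbour Zim1, another zinc finger gene, had 1.25 to 1.79 CPM in NSC, 0.77 to 1.5 CPM in astrocyte medium, 2.22 to 3.63 CPM in neuron medium and 0.55 and 0.93 CPM in oligodendrocyte medium. Zim1 rose in neuron medium (0.59 ± 0.16, adjusted p = 0.00437), a call that was lost under quantile normalization (0.12, adjusted p = 0.479). It was lower than NSC in astrocyte medium (-0.38, adjusted p = 0.0434) and oligodendrocyte medium (-0.58, 0.00931), and neither call held in every fit that left out a library. The former was lost without the first or second NSC library, the second or the third astrocyte medium library or the third neuron medium library (0.0553 to 0.155), and the latter without the first oligodendrocyte medium library (0.112).

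Usp29, a deubiquitinase gene read from the Peg3 region, ranged from 0.59 to 1.61 CPM, and its rise in astrocyte medium (0.46, adjusted p = 0.00294) turned to -0.21 under quantile normalization. Zdbf2, a zinc finger gene, ranged from 0.34 to 1.32 CPM and fell in astrocyte medium (-0.53 ± 0.12, adjusted p = 0.000987).

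**Figure D3:**
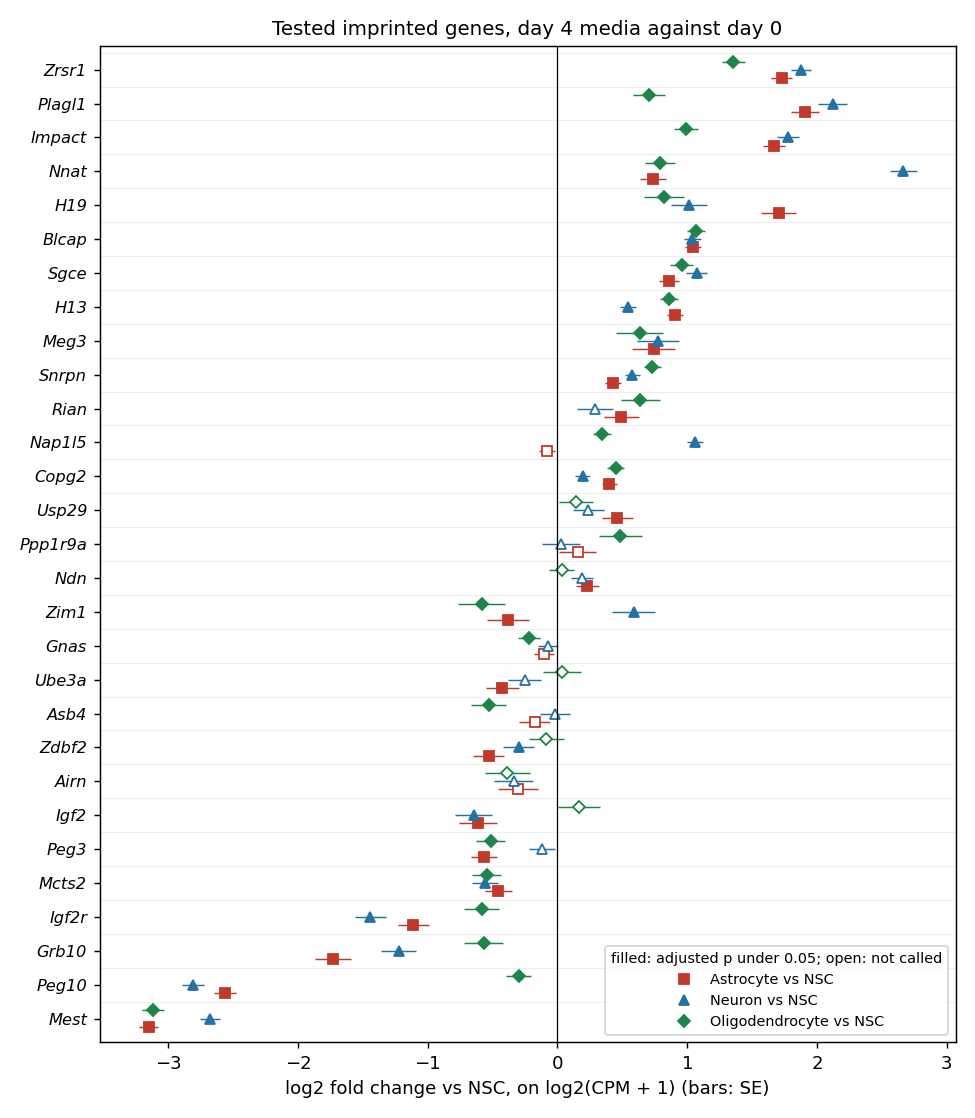
Log2 fold change of the 29 tested members against NSC in each medium, on the log2(CPM + 1) scale. Points are fitted differences with bars of 1 SE, with filled points called at an adjusted p under 0.05 and open points not called. Mest lies furthest to the left in all but neuron medium, where Peg10 does, and Nnat lies furthest to the right in neuron medium.

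Taking each medium against NSC, the members again moved in both directions. In astrocyte medium 14 members rose and 10 fell, where 83.6% of all genes were called, 48% higher and 35.6% lower; at 2-fold or more there were 5 and 4, beside 21.4% and 12.3%. Neuron medium had 13 members higher and 7 lower, beside 83.1% of all genes called, 43.5% higher and 39.6% lower, and 8 and 4 at 2-fold or more, beside 17.9% and 13.8%. Oligodendrocyte medium had 14 higher and 9 lower, beside 80.2% called, 48.1% higher and 32.2% lower, and 2 and 1 at 2-fold or more, beside 21.2% and 10.7%. The 2 members over 2-fold higher in oligodendrocyte medium were Blcap and Zrsr1, and the 1 lower was Mest. These counts are under the shares of all genes, a difference that was not tested. The 2-fold limit was set on the log2(CPM + 1) scale, which understates changes of low genes. H19 (mean of 2.1 CPM in NSC and 4.6 CPM in oligodendrocyte medium) and Zim1 (1.6 and 0.74 CPM) did not reach it. Neither did Meg3 (0.56 and 1.35 CPM) or Rian (0.43 and 1.225 CPM), whose calls there were lost under quantile normalization. Libraries did not overlap for 24, 20 and 25 members in these comparisons, beside 86.2%, 83.2% and 89.3% of all genes. The members' median log2 changes were 0.16, 0.19 and 0.17, beside 0.15, 0.06 and 0.19 over all genes. Under median-of-ratios scaling the astrocyte medium split was 13 higher and 14 lower; under quantile normalization it was 10 and 12, with 11 and 11 in neuron medium and 11 and 12 in oligodendrocyte medium. The 3 comparisons share the NSC libraries.

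Between media the members that differed most were Peg10, Nnat, Plagl1, Zim1, Grb10 and Nap1l5. In astrocyte against neuron medium, 5 members were higher and 8 lower, beside 62.2% of all genes called, 40.3% higher and 22% lower. None was 2-fold higher, where 6.39% of all genes were, and Nnat and Nap1l5 were 2-fold lower, where 2.95% were. The libraries did not overlap for 13 members and 63% of all genes. The higher ones were H19, H13, Igf2r, Peg10 and Copg2, of which Igf2r and Peg10 were not called without the first or second astrocyte medium library or the second neuron medium library (adjusted p for Peg10 from 0.0504 to 0.0799). With median-of-ratios scaling 2 members were higher and 11 lower, and with quantile normalization 2 and 12; 3 were higher without the first astrocyte medium library and 3 without the second neuron medium library.

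With T3, in oligodendrocyte against neuron medium, 7 members were higher and 9 lower, beside 67.5% of all genes called, 43.9% higher and 23.6% lower. Peg10 alone was 2-fold higher, and Nnat, Plagl1 and Zim1 were 2-fold lower, where 3.58% of all genes were. Libraries did not overlap for 22 members and 75.7% of all genes. The split was 5 higher and 12 lower under both other scalings. The higher members were Peg10, Igf2r, Igf2, Grb10, Ppp1r9a, H13 and Copg2; the Ppp1r9a call was lost without the first (adjusted p = 0.119) or second (0.0673) oligodendrocyte medium library and the Copg2 call without the second (0.0606).

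In oligodendrocyte against astrocyte medium, 8 members were higher and 5 lower, beside 52.2% of all genes called, 28.7% higher and 23.5% lower. Peg10 and Grb10 were 2-fold higher and Plagl1 was 2-fold lower, beside 4.53% and 3.41%. The libraries did not overlap for 20 members and 71.7% of all genes. The lower members were Plagl1, H19, Impact, Zrsr1 and Asb4, of which the Asb4 call was lost with a replicate block (adjusted p = 0.0771).

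**Figure D4:**
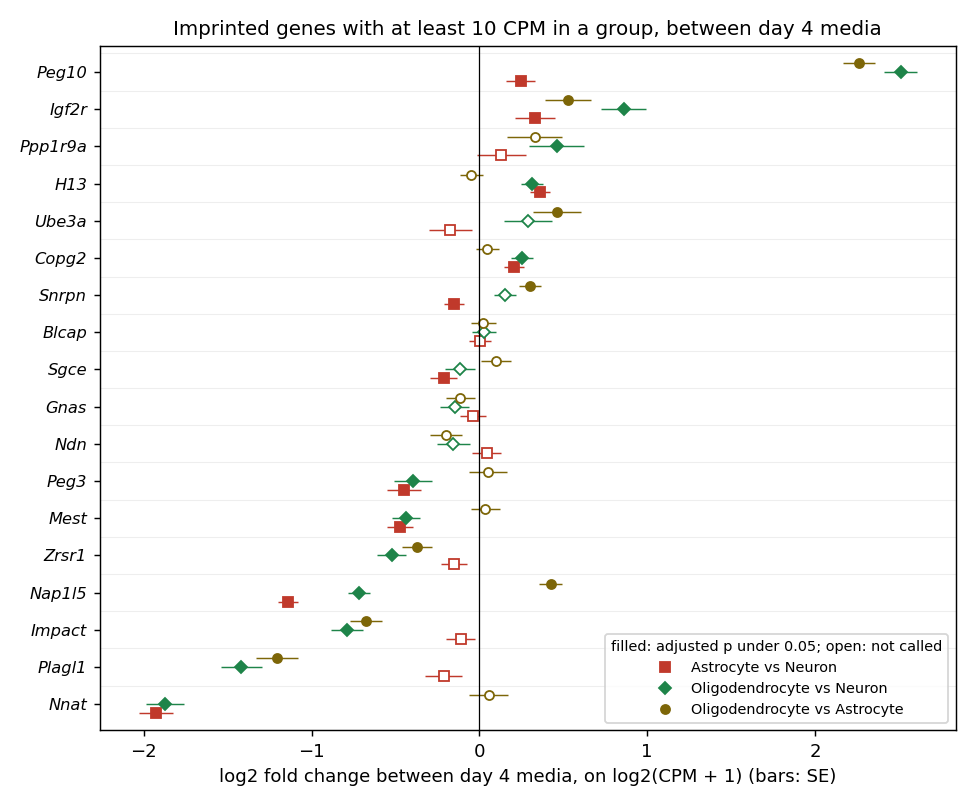
Log2 fold difference between media for the 18 members with a group mean of at least 10 CPM. Points are fitted differences with bars of 1 SE, with filled points called at an adjusted p under 0.05 and open points not called. Peg10 stands at 2.51 and 2.26 in the comparisons of oligodendrocyte medium, and Nnat at -1.93 and -1.87 in the comparisons with neuron medium.

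Genes around the members were followed in the same libraries. Of 39 other imprinted genes, 34 were found and 19 tested; 11 rose and 6 fell at day 4, near the 49.3% higher and 37% lower of all genes. Their median log2 change was 0.35, beside 0.15 over all genes. Peg12, an intronless gene of the Prader-Willi region, had the largest fall, from 82.8 CPM in NSC to 4.35, 4.20 and 5.96 CPM in astrocyte, neuron and oligodendrocyte medium (-3.86 ± 0.08, adjusted p = 2.73e-14). Osbpl5, an oxysterol-binding protein gene, rose from 12.7 CPM to 79.7, 34.9 and 82.3 CPM, and Ampd3, an AMP deaminase gene, from 4.26 to 29.9, 8.62 and 19.3 CPM. Pon2, a paraoxonase gene near Peg10, rose from 52.7 to 131, 145 and 88.7 CPM. Cdkn1c, an imprinted inhibitor of the cell cycle chosen here after its values were seen, was at 7.06 CPM in NSC and 3.44, 17.8 and 3.35 CPM in the media; it rose in neuron medium (1.22 ± 0.10, adjusted p = 4.09e-08) and fell in astrocyte medium (-0.86 ± 0.10, 1.63e-06) and oligodendrocyte medium (-0.89 ± 0.11, 4.12e-06).

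Most tested genes of an imprint maintenance list, which also holds de novo methyltransferase and Polycomb genes, were lower at day 4. Of 12 imprint maintenance genes, 10 were tested, 8 fell and 1 rose, where 37% of all genes were lower and 49.3% higher; their median was -0.81, beside 0.15 over all genes. Uhrf1, which brings DNMT1 to newly copied DNA, went from 209 CPM in NSC to 8.10, 3.68 and 12.5 CPM in the media (-4.66 ± 0.09, adjusted p = 2.59e-14). Dnmt1 itself went from 306 to 53.9, 47.6 and 50.8 CPM (-2.58 ± 0.08, 1.3e-12). Trim28 fell from 323 to between 119 and 132 CPM (-1.35 ± 0.05, 1.49e-11) and Eed, a Polycomb subunit, changed by -1.15 ± 0.07 (2.81e-09). The gene that rose was Dnmt3a, a de novo methyltransferase. The gene not called was Zfp57, at 13.2 CPM in NSC and 10.7, 15.7 and 8.88 CPM in the media (-0.19 ± 0.11, adjusted p = 0.1). Both were named after their values were seen.

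Of 12 IGF axis partners, 10 were tested, 6 fell and 1 rose at day 4, where 37% of all genes were lower and 49.3% higher. So 7 of 10 were called, where 86.3% of all genes were. The median of the tested partners was -1.46, beside 0.15 over all genes. The IGF binding protein genes held the largest changes. Igfbp2 went from 670 CPM in NSC to 47.8, 28.8 and 37.6 CPM (-4.14 ± 0.13, adjusted p = 1.2e-12), Igfbp3 from 533 to 63.2, 39.2 and 203 CPM (-2.73 ± 0.05, 2.21e-14) and Igfbp4 from 50.1 to 9.40, 3.68 and 6.81 CPM (-2.82 ± 0.08, 8.54e-13). Igfbp5 rose from 32.9 to 559, 182 and 484 CPM (3.44 ± 0.06, 1.38e-14). Igfbp3, like Peg10, Igf2r and Grb10, had its smallest fall in oligodendrocyte medium, where its level exceeded that in neuron medium by 2.34 on the log2 scale (adjusted p = 3.35e-11).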

How the data were processed

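The deposited values are CPM, made by the authors for 37991 genes and rounded to 2 decimals, with symbols, coordinates and a column for each library, per the file headers. The submitters' processing notes name bcl2fastq 1.8.4, TopHat2 2.0.8, HTSeq 0.6.1, edgeR 3.2.4, R 3.0.0, HOMER and build NCBIM37 (mm9), with no role or order. The labels' protocols give poly(A) selection and a stranded kit. The sources used here do not give the annotation release, the read filters or the use of strand in counting. The genes listed summed to 74.95% to 80.25% of the scale in a library. No column of library values was left unmapped (0).

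CPM values are not counts, so log2(CPM + 1) was fitted with limma 3.58.1 in R 4.3.3, with an intensity trend, for the 13342 genes that reached 1 CPM in 2 or more libraries, 29 members among them. All 11 libraries shared 1 estimate of the spread (7 residual and 5.96 prior degrees of freedom). Fold changes are on the log2(CPM + 1) scale and understate changes of low genes. Each of 7 comparisons was adjusted over all genes by Benjamini-Hochberg, and calls were made at an adjusted p under 0.05. The labels do not say that replicates were separate cultures, so p values measure the spread between these libraries, which may be technical. The fitting code was checked on simulated data.

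Members with a group mean of at least 10 CPM are given by library, the others by range. Of each further list, at most 4 genes are named, those called at day 4 with the largest change and a group mean of at least 10 CPM, with host genes of nested members. Members, lists and tests were chosen with earlier results of these data known. Alternatives were 2 other pseudocounts, 2 other filters, 2 other scalings, a fit with no trend, a fit of the compared groups alone, a replicate block and leaving out each library. Pairing of the libraries by replicate number was not shown: same-numbered residuals correlated between -0.505 and 0.415 over 15 pairs, others between -0.536 and 0.541 over 30. Residuals within a group of 2 or 3 libraries are tied to each other, so these ranges cannot exclude pairing. Promoter windows and microRNAs come from RefSeq tables of GRCm38.p6, matched by symbol for 30 members; gene coordinates are those of the deposited table on mm9.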

Additional observations from a re-analysis of the deposited data

Results flagged for a closer look

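Members listed here differed between media by at least 2-fold with a called test of the difference itself, or were called in opposite directions against NSC. Nnat was lower in astrocyte than in neuron medium by a log2 difference of -1.93 and lower in oligodendrocyte than in neuron medium by -1.87. Peg10 was higher in oligodendrocyte medium than in neuron medium (2.51) and than in astrocyte medium (2.26). Plagl1 was lower in oligodendrocyte medium than in neuron medium (-1.42) and than in astrocyte medium (-1.21).

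Nap1l5 was lower in astrocyte than in neuron medium (-1.14), with astrocyte medium overlapping NSC. Grb10 was higher in oligodendrocyte than in astrocyte medium (1.16), both below NSC. Zim1 was called higher than NSC in neuron medium and lower in the other media, with differences of -0.97 (astrocyte against neuron medium) and -1.17 (oligodendrocyte against neuron medium); its levels were 0.55 to 3.63 CPM, about 35 to 182 reads a library, and its call in neuron medium was lost under quantile normalization (0.12, adjusted p = 0.479).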

How the results depend on the processing

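Of the called members, 20 of 24 at day 4, 22 of 24 in astrocyte medium, 19 of 20 in neuron medium and 19 of 23 in oligodendrocyte medium kept their call against NSC when each library was left out in turn. Between media these were 9 of 13 (astrocyte against neuron), 14 of 16 (oligodendrocyte against neuron) and 10 of 13 (oligodendrocyte against astrocyte). Over all alternatives for single members, 3701 of 3961 values kept direction and side of the threshold, 64 changed sign while called in neither fit, 100 lost their call, 87 gained one and 9 changed sign while called in either fit.

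Those 9 all came under quantile normalization: Rian at day 4 (-0.14), in astrocyte medium (-0.18) and in oligodendrocyte medium (-0.0182); Usp29 at day 4 (-0.32), in astrocyte medium (-0.21), neuron medium (-0.26) and oligodendrocyte medium (-0.48); and, in oligodendrocyte medium, Igf2 (-0.47) and Meg3 (-0.018). The cause was not tested. The number of members lower at day 4 was 6 rather than 10 with a filter of 5 CPM, which tests 21 members. The number lower in neuron medium was 11 rather than 7 under quantile normalization. The number higher in astrocyte than in neuron medium was 2 rather than 5 with median-of-ratios scaling and with quantile normalization, and 3 with the compared groups alone. Leaving out a library gave 3 to 6 there, 13 to 15 higher and 7 to 12 lower at day 4. With a replicate block, for which pairing of the libraries was neither shown nor excluded, Asb4 at day 4 (-0.23, adjusted p = 0.0527) and 3 further calls were lost, 1 was gained, and no count moved by over 1.5 times. Igf2, Meg3, Rian and Usp29 rest on about 10 to 115 reads a library, and day 4 against NSC uses all groups, so a fit of the compared groups alone adds nothing there.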
